A study of Mus musculus with 6 samples.

Results

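The genes described here are the 10 mouse genes that encode the CDK inhibitors and the pocket proteins. They were taken by symbol, with no threshold on a measured value, and are 10 of the 20409 features counted in the series. They comprise 3 CIP/KIP inhibitors (*Cdkn1a*, *Cdkn1b* and *Cdkn1c*), 4 INK4 inhibitors (*Cdkn2a*, *Cdkn2b*, *Cdkn2c* and *Cdkn2d*) and 3 pocket proteins (*Rb1*, *Rbl1* and *Rbl2*). Each symbol matched 1 row of the count table, and 9 of the 10 passed the filter on low counts that left 13346 genes for testing. *Cdkn2a* did not pass it.

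Cyclin-dependent kinases (CDKs) move a cell from the G1 phase into DNA synthesis by phosphorylating the pocket proteins, which otherwise hold E2F transcription factors in a repressive state. INK4 proteins bind CDK4 and CDK6 and keep them from D-type cyclins, whereas CIP/KIP proteins bind assembled cyclin-CDK complexes and are best known as inhibitors of CDK2. In the intestine, cells divide in the crypts and leave the cell cycle as they move onto the villus, where p21 (the product of *Cdkn1a*) and the pocket proteins are known for keeping differentiated cells out of the cycle.

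In the series, villus epithelium of the duodenum was sequenced as poly(A)-enriched RNA from 3 double mutant (DM) and 3 wild-type (WT) mice, with 1 mouse per library. The DM mice carried *Smad4* fl/fl and *Ctnnb* exon3 fl/wt alleles with Villin-CreERT2, a tamoxifen-inducible Cre that is active throughout the intestinal epithelium. They received 0.05 g/kg tamoxifen by intraperitoneal injection on 4 days, and villi were collected 7 days after induction; the labels give the outcome as Smad4 knockout with a gain of function (GOF) of beta-catenin. The WT mice were littermates that were not injected, so the response to tamoxifen and the response to the mutations cannot be told apart, and neither can the *Smad4* from the beta-catenin allele. All mice were on a C57BL6-enriched background, each group held 1 male (replicate 1) and 2 females, and ages are not given in the sources used here. With 1 male per group, an effect of sex cannot be told apart from that mouse.

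Total counts ran from 19678507 to 26337318 per library. Levels are given as CPM, the count of a gene relative to the library total scaled by its TMM factor, and the numbers for each group follow replicates 1, 2 and 3. *Smad4*, the deleted gene, measured 120, 180 and 144 CPM in WT mice and 26.1, 36.8 and 32.1 CPM in DM mice, a log2 fold change of -2.22 ± 0.19 (SE; adjusted p = 0.000145, edgeR quasi-likelihood test with Benjamini-Hochberg adjustment). The epithelial genes *Epcam* and *Cdh1* were abundant in all 6 libraries, at 1696 to 1940 CPM and 712 to 949 CPM. WT mouse 1 stood apart from the other WT mice. Its goblet cell markers summed to 144 CPM against 15652 and 14836 CPM in WT mice 2 and 3, and its crypt stem cell markers to 27.6 CPM against 99.3 and 105 CPM. Results for the 9 tested genes are therefore also given without this mouse.

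Of the 9 tested genes, 6 were lower in DM villi and 0 were higher at an adjusted p under 0.05 (edgeR), whereas 17.0% of all tested genes were lower and 19.7% higher. The 6 were *Cdkn1a*, *Cdkn1b*, *Cdkn1c*, *Cdkn2b*, *Rb1* and *Rbl2*. DESeq2 and limma-voom each also called 6 lower and 0 higher, and at an unadjusted p under 0.05 the counts were 6 and 0 with all 3 tools. All 9 fold changes were negative, with a median of -0.64 on the log2 scale beside 0.02 over all tested genes. None of the 6 reached the log2 fold change of 2 that the study's methods also require, which 2.26% of all tested genes did in the downward direction. In 7 of the 10 genes every DM mouse lay below every WT mouse, in 0 every DM mouse lay above, and in 3 the groups overlapped; among all tested genes the groups did not overlap in 52.4%, with 24.2% wholly below and 28.1% wholly above. Of the 7, *Cdkn2d* was separated only by a small gap that depends on the scaling. In these bulk samples, fewer cells of a type and less RNA per cell cannot be told apart.

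**Figure D1:**
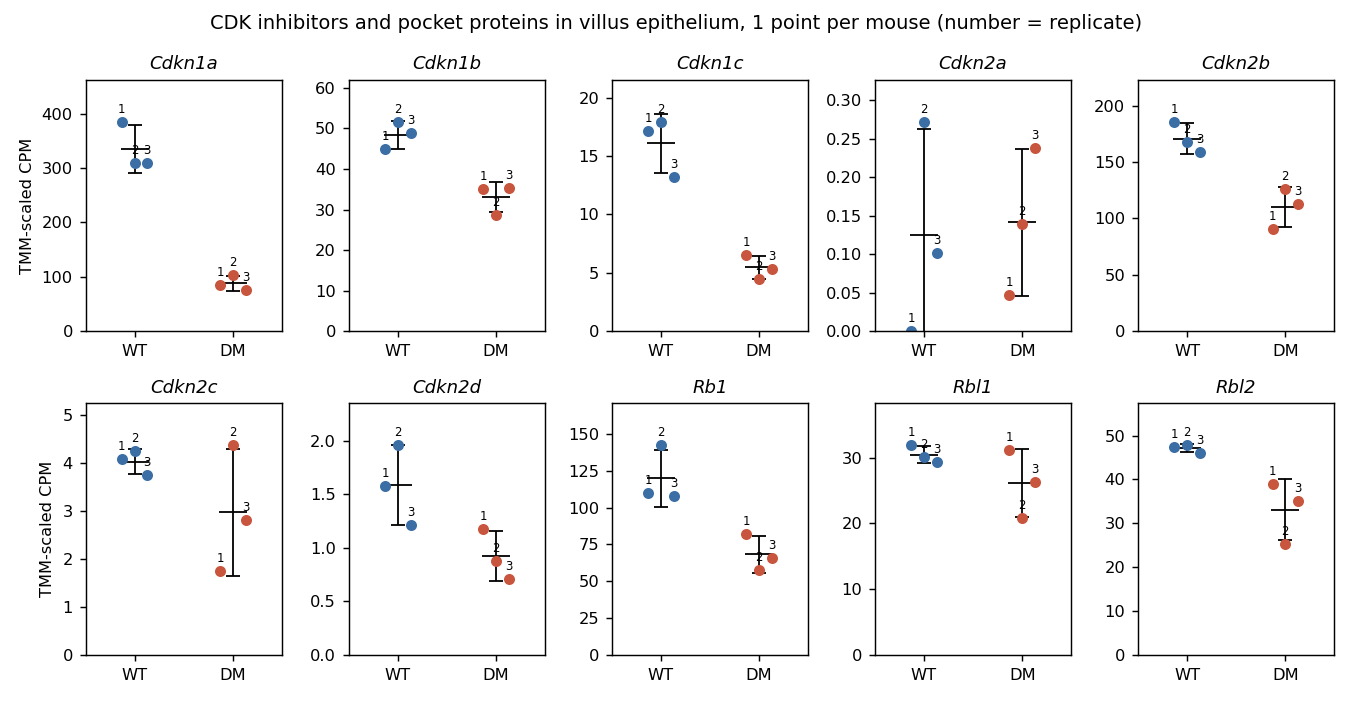
Level of each of the 10 genes in TMM-scaled CPM (y axes, which differ between panels and start at 0) in 3 WT (blue) and 3 DM (red) mice, with 1 point per mouse numbered by replicate, the group mean as a long bar and the SD as whiskers. The DM points lie below all WT points for *Cdkn1a*, *Cdkn1b*, *Cdkn1c*, *Cdkn2b*, *Cdkn2d*, *Rb1* and *Rbl2*, and the groups overlap for *Cdkn2a*, *Cdkn2c* and *Rbl1*.

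Transcript levels of marker genes for several cell types differed between the groups as well. The proliferation markers *Mki67* and *Top2a* summed to 8.71 to 29.4 CPM in WT and 56.3 to 82.4 CPM in DM mice, and both were called higher. Crypt stem cell markers summed to 27.6 to 105 CPM in WT and 135 to 188 CPM in DM mice, with 2 of 5 (*Lgr5* and *Smoc2*) higher. Of 10 epithelial and enterocyte markers, 6 were lower, and the 10 summed to 41249 to 46640 CPM in WT and 24218 to 25541 CPM in DM mice. All 5 tuft cell markers were lower (89.2 to 118 CPM summed in WT, 13.6 to 17.0 CPM in DM), and so were 5 of 7 enteroendocrine markers (225 to 314 CPM and 98.5 to 109 CPM) and 2 of 8 leukocyte markers (94.8 to 195 CPM and 84.2 to 125 CPM). Of 8 symbols on the goblet cell list 7 were not called, and the 1 that was, the row with the older symbol *Clca1* (ENSMUSG00000056025), is not the goblet cell gene that now bears that name, which is the *Clca3* row here. Of 4 Paneth cell markers 0 were called. The lists had WT sums of 144 to 15652 CPM (goblet) and 5.54 to 1002 CPM (Paneth) and DM sums of 4962 to 5504 CPM and 125 to 190 CPM. The 7 counted fibroblast and smooth muscle markers summed to 1.46 to 3.03 CPM in WT and 3.04 to 6.76 CPM in DM mice, so that every DM sum lay above every WT sum; most of the WT sum was *Vim*, and *Col1a2*, *Col3a1* and *Pdgfra* were at 0 in all WT mice but not in all DM mice. Endothelial markers summed to 1.52 to 2.23 CPM in WT and 1.47 to 1.83 CPM in DM mice. These shifts moved with the same 2 groups of mice as the inhibitor genes, and their part in the results was not tested.

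Among the CIP/KIP inhibitors, *Cdkn1a* (ENSMUSG00000023067; mm9 chr17:29227924-29237667, plus strand) encodes p21, the inhibitor through which p53 is best known to arrest the cycle. The RefSeq promoters used here (GRCm38.p6) give it a pair of transcription start sites. The 250 bases before each are shown because this gene had the largest change of the 9 tested and the windows hold different motifs. Capitals mark matches to the p53 half-site in the first (chr17:29090729-29090978) and the GC box GGGCGG, which SP1 and KLF factors can bind, in the second (chr17:29093519-29093768).
Cdkn1a upstream start: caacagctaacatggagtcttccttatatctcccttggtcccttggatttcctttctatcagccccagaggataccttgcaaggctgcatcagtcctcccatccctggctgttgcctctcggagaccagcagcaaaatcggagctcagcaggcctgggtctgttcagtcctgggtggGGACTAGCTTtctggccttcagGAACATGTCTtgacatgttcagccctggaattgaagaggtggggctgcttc
Cdkn1a downstream start: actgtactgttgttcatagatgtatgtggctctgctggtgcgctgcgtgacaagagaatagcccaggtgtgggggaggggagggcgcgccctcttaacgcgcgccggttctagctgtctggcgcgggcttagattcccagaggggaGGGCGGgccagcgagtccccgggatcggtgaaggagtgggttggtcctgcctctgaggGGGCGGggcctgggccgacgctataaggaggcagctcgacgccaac
The p53 half-sites begin 73 and 51 bases before the upstream start, and the GC boxes 104 and 46 bases before the downstream one. On both strands, a p53 half-site occurs in 7.13% and a GC box in 32.7% of 32851 RefSeq promoter windows of the same length. The counts are per gene and do not separate the 2 starts.

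*Cdkn1a* measured 385, 309.6 and 308.9 CPM in WT mice and 85.0, 104 and 76.2 CPM in DM mice. The groups lay far apart, and the highest DM mouse was well below the lowest WT mouse. The means were 335 ± 43.8 and 88.3 ± 13.9 CPM (SD, n = 3 each), a log2 fold change of -1.92 ± 0.15 (SE; 95% interval -2.27 to -1.57; adjusted p = 0.000114, edgeR), or 3.79-fold lower. In size this change exceeded that of 93.6% of all tested genes. Without WT mouse 1, whose *Cdkn1a* was the highest of the 6, it was -1.81 (adjusted p = 2.29e-05, edgeR).

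*Cdkn1b* (ENSMUSG00000003031; mm9 chr6:134870419-134875531, plus strand) encodes p27, which holds CDK2 inactive in resting cells and is controlled largely by protein turnover. Its RefSeq promoter (GRCm38.p6 chr6:134920151-134920400, plus strand) is shown beside those of *Cdkn1a* as that of a relative with a smaller change; the capitals mark 1 GC box, 61 bases before the start.
Cdkn1b: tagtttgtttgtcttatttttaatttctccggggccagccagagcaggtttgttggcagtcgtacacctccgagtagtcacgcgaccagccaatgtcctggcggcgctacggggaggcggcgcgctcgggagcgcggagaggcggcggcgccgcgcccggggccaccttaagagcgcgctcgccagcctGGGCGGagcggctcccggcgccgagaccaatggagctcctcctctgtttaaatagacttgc
Levels were 44.8, 51.7 and 48.9 CPM in WT and 35.0, 28.8 and 35.4 CPM in DM mice. All 3 DM mice lay below the lowest WT mouse, but by a narrower margin than for *Cdkn1a*. The means of 48.5 ± 3.45 and 33.0 ± 3.72 CPM gave a log2 fold change of -0.55 ± 0.13 (SE; 95% interval -0.84 to -0.26; adjusted p = 0.0102, edgeR), or 1.47-fold lower, and -0.61 without WT mouse 1 (adjusted p = 0.00786, edgeR). Scaled by library size alone the change was -0.36 and no longer passed (adjusted p = 0.0613, edgeR). That scaling moved the median of all tested genes from 0.02 to 0.22, and relative to the median *Cdkn1b* changed by -0.57 with either scaling.

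*Cdkn1c* (ENSMUSG00000037664; mm9 chr7:150644255-150646955, minus strand) encodes p57, an imprinted inhibitor expressed mainly from the maternal allele. It measured 17.1, 18.0 and 13.2 CPM in WT mice and 6.53, 4.50 and 5.36 CPM in DM mice. Every DM mouse was below every WT mouse, and the lowest WT mouse still held more than the highest DM mouse by a wide margin. The means of 16.1 ± 2.54 and 5.46 ± 1.02 CPM gave a log2 fold change of -1.56 ± 0.20 (SE; 95% interval -2.02 to -1.09; adjusted p = 0.000849, edgeR), or 2.94-fold lower, and -1.51 without WT mouse 1 (adjusted p = 0.000632, edgeR).

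The CIP/KIP genes thus all fell, but by different amounts. Their summed level went from 399 ± 41.7 CPM in WT to 127 ± 9.91 CPM in DM mice, 68.2% lower. Per kilobase of exon, *Cdkn1a* made up 88.8% of the CIP/KIP level in WT and 79.7% in DM villi, *Cdkn1b* 6.28% and 14.6%, and *Cdkn1c* 4.92% and 5.68%. On this scale *Cdkn1a* exceeded *Cdkn1b* by 3.82 ± 0.28 log2 units in WT and 2.45 ± 0.39 in DM mice (SD, n = 3), and the 2 groups of ratios did not overlap. *Cdkn1c* lay below *Cdkn1b* in all 6 mice, by a log2 ratio of -0.36 ± 0.26 in WT and -1.37 ± 0.16 in DM mice.

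Among the INK4 inhibitors, *Cdkn2b* (ENSMUSG00000073802; mm9 chr4:88952198-88956941, minus strand) encodes p15, known as an inhibitor induced by TGF-beta signalling. It measured 186, 167 and 159 CPM in WT mice and 90.8, 126 and 112 CPM in DM mice. The groups did not overlap, and DM mouse 1 was the lowest. The means of 171 ± 13.8 and 109.8 ± 17.8 CPM gave a log2 fold change of -0.64 ± 0.14 (SE; 95% interval -0.96 to -0.32; adjusted p = 0.00841, edgeR), or 1.55-fold lower, and -0.57 without WT mouse 1 (adjusted p = 0.0134, edgeR). None of the 6 motifs searched was found in the 250 bases before its RefSeq start.

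*Cdkn2a* (ENSMUSG00000044303; mm9 chr4:88920377-88940557, minus strand), which lies 11640 bases from *Cdkn2b*, encodes both p16 and, in another reading frame, p19ARF, and the counts do not separate these transcripts. It had 0, 5 and 2 counts in WT mice and 1, 3 and 5 counts in DM mice. No library held more than 5 counts and the groups overlapped, so no fold change is given; 3 counts correspond to 0.125 to 0.163 CPM in these libraries, and a difference was not detectable at this depth. The neighbouring inhibitor genes thus differed widely in level, with *Cdkn2b* at 1935 to 4460 counts in the same libraries.

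*Cdkn2c* (ENSMUSG00000028551; mm9 chr4:109333481-109339794, minus strand) encodes p18. It measured 4.08, 4.24 and 3.74 CPM in WT mice and 1.74, 4.36 and 2.80 CPM in DM mice. The WT mice were close to each other, and DM mouse 2 was above all of them while the other two DM mice were below. The log2 fold change of -0.44 ± 0.34 did not pass the test (SE; 95% interval -1.22 to 0.34; adjusted p = 0.348, edgeR).

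*Cdkn2d* (ENSMUSG00000066860; mm9 chr9:21092907-21095653, minus strand) encodes p19INK4d, a protein unrelated to p19ARF. Its levels were the lowest of the tested genes, at 1.58, 1.96 and 1.21 CPM in WT and 1.17, 0.881 and 0.712 CPM in DM mice, from 15 to 38 counts. On the TMM scale DM mice lay below WT mice without overlap, with only a small gap between WT mouse 3 and DM mouse 1. In unscaled counts these mice had 24 and 25, so the separation depends on the scaling. The log2 fold change of -0.78 ± 0.38 did not pass (SE; 95% interval -1.65 to 0.10; adjusted p = 0.148, edgeR). Neither gene passed in any of the 6 fits that each left out a mouse. *Cdkn2c* ran from -0.16 without DM mouse 1 to -0.82 without DM mouse 2 and was -0.43 without WT mouse 1, and *Cdkn2d* ran from -0.98 to -0.60 and was -0.77 without WT mouse 1. *Cdkn2b* held 97.7% of the INK4 level per kilobase of exon in WT and 97.6% in DM villi, so the INK4 sum (176 ± 14.0 CPM in WT, 114 ± 19.0 CPM in DM, 35.5% lower) is essentially that of *Cdkn2b*.

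**Figure D2:**
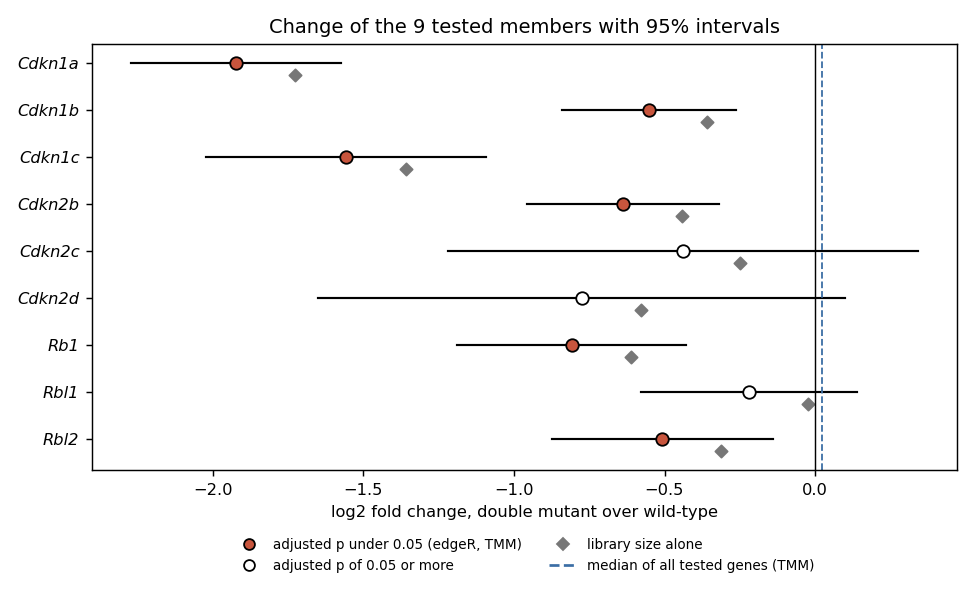
Log2 fold change of the 9 tested genes, DM over WT (x axis), with 95% intervals from the edgeR fit, filled where the adjusted p was under 0.05; grey diamonds give the value scaled by library size alone, and the dashed line is the median of all tested genes (0.02). *Cdkn1a* (-1.92) and *Cdkn1c* (-1.56) lie furthest to the left, and the intervals of *Cdkn2c*, *Cdkn2d* and *Rbl1* include 0.

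Among the pocket proteins, *Rb1* (ENSMUSG00000022105; mm9 chr14:73583480-73725629, minus strand) encodes the retinoblastoma protein, which binds the activating E2F factors. It measured 110, 142 and 108 CPM in WT mice and 82.1, 57.5 and 65.8 CPM in DM mice. The groups did not overlap, and WT mouse 2 was the highest. The means of 119.9 ± 19.4 and 68.5 ± 12.5 CPM gave a log2 fold change of -0.81 ± 0.17 (SE; 95% interval -1.19 to -0.43; adjusted p = 0.00625, edgeR), or 1.75-fold lower, and -0.87 without WT mouse 1 (adjusted p = 0.00394, edgeR). Its exons share 488 bases (8.11%) with *Rcbtb2* and 408 bases (6.78%) with *Lpar6*, both on the opposite strand, and the strand setting of the counting is not given in the sources used here. *Lpar6* moved the other way, from 3.06 ± 0.556 to 8.10 ± 1.61 CPM (by 1.41 on the log2 scale, adjusted p = 0.00318, edgeR), at a level far below that of *Rb1*, and *Rcbtb2* measured 0.08 (adjusted p = 0.784, edgeR).

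*Rbl1* (ENSMUSG00000027641; mm9 chr2:156971629-157030270, minus strand) encodes p107, the pocket protein whose own gene is a known E2F target. Its RefSeq promoter (GRCm38.p6 chr2:157204535-157204784, minus strand) is shown because it holds an E2F motif, in capitals, 18 bases before the start.
Rbl1: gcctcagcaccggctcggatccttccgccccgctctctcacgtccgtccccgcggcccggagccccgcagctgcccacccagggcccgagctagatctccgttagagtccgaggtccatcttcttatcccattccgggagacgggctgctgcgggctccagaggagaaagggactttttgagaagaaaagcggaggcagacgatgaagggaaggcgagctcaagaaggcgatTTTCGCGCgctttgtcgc
The E2F motif was searched as TTTCCCGC, TTTGGCGC, TTTCGCGC and TTTGCCGC on both strands and occurs in 1.86% of the 32851 windows; the other match among the 8 genes searched is before 1 of the starts of *Cdkn2a*. *Rbl1* measured 31.9, 30.1 and 29.3 CPM in WT mice and 31.2, 20.9 and 26.3 CPM in DM mice. DM mouse 1 lay within the WT range and the other two below it. The log2 fold change of -0.22 ± 0.16 did not pass the test (SE; 95% interval -0.58 to 0.14; adjusted p = 0.307, edgeR). Leaving out each mouse in turn, it ran from -0.36 without DM mouse 1 to -0.08 without DM mouse 2, was -0.19 without WT mouse 1, and passed in 0 of the 6 fits.

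*Rbl2* (ENSMUSG00000031666; mm9 chr8:93593956-93647743, plus strand) encodes p130, the pocket protein that accumulates in resting cells and joins the DREAM repressor complex with E2F4. It measured 47.4, 47.8 and 46.0 CPM in WT mice and 39.0, 25.3 and 35.1 CPM in DM mice. The WT mice were nearly equal, and the DM mice were all lower but more spread. The means of 47.1 ± 0.913 and 33.1 ± 7.03 CPM gave a log2 fold change of -0.51 ± 0.16 (SE; 95% interval -0.87 to -0.14; adjusted p = 0.0372, edgeR), or 1.42-fold lower. This call was the least secure of the 6: without WT mouse 1 the value was -0.50 (adjusted p = 0.0503, edgeR), and it passed in only 1 of the 6 fits that each left out a mouse, the one without DM mouse 1. With library size alone it was -0.31 (adjusted p = 0.170, edgeR), or -0.53 relative to the median of all genes. Its exons share 693 bases (9.95%) with *Aktip* on the opposite strand, which measured -0.36 (adjusted p = 0.0525, edgeR).

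The pocket protein genes summed to 197 ± 19.9 CPM in WT and 128 ± 24.3 CPM in DM mice, 35.3% lower. Per kilobase of exon, *Rb1* held 62.7% of this family in WT and 55.5% in DM villi, *Rbl1* 16.0% and 21.3%, and *Rbl2* 21.3% and 23.2%. The log2 ratio of *Rb1* to *Rbl1* on that scale was 1.96 ± 0.24 in WT and 1.39 ± 0.07 in DM mice, and that of *Rbl1* to *Rbl2* was -0.41 ± 0.05 and -0.12 ± 0.07. Neither pair of ratio groups overlapped between WT and DM mice.

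Levels of different genes were compared per kilobase of exon. In WT villi *Cdkn1a* came first (150.5 ± 19.7 CPM per kilobase), followed by *Cdkn2b* (123 ± 9.90), *Rb1* (19.9 ± 3.23), *Cdkn1b* (10.6 ± 0.758), *Cdkn1c* (8.33 ± 1.32), *Rbl2* (6.76 ± 0.131), *Rbl1* (5.08 ± 0.217), *Cdkn2c* (1.50 ± 0.0956), *Cdkn2d* (1.25 ± 0.293) and *Cdkn2a*. The mice overlapped between the neighbours *Cdkn1c* and *Rbl2* and between *Cdkn2c* and *Cdkn2d*, and not between the others. In DM villi *Cdkn2b* came first (78.8 ± 12.8), ahead of *Cdkn1a* (39.7 ± 6.27), followed by *Rb1* (11.4 ± 2.08), *Cdkn1b* (7.26 ± 0.817), *Rbl2* (4.76 ± 1.01), *Rbl1* (4.36 ± 0.864), *Cdkn1c* (2.83 ± 0.527), *Cdkn2c* (1.10 ± 0.491), *Cdkn2d* (0.726 ± 0.184) and *Cdkn2a*. *Cdkn1c* thus moved from the fifth place to the seventh, and the neighbours that overlapped were *Rbl2* with *Rbl1* and *Cdkn2c* with *Cdkn2d*. The log2 ratio of *Cdkn2b* to *Cdkn1a* was negative in all 3 WT mice (-0.29 ± 0.08) and positive in all 3 DM mice (0.99 ± 0.23), on a linear scale 0.817 and 1.98. With the length of the longest transcript in place of the exon union, *Rbl2* came before *Cdkn1c* in WT villi, and the order was otherwise the same.

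**Figure D3:**
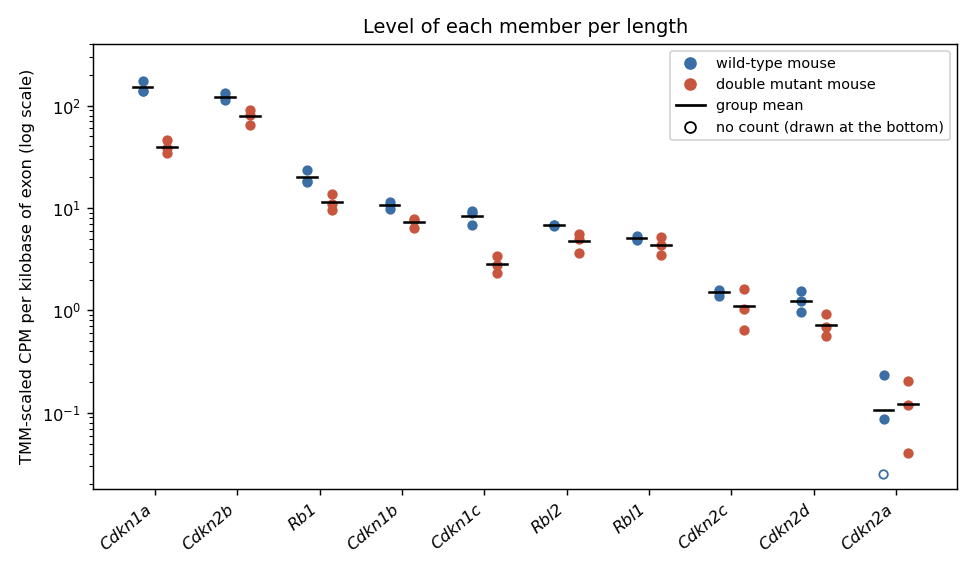
Level of each gene in TMM-scaled CPM per kilobase of exon (y axis, log scale) in 3 WT (blue) and 3 DM (red) mice, with a bar at each group mean and an open circle for the WT mouse with no *Cdkn2a* count. *Cdkn1a* and *Cdkn2b* stand above the other genes in both groups and change places, from 150.5 and 123 in WT to 39.7 and 78.8 in DM mice.

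The kinases and cyclins that the inhibitors oppose moved mostly the other way. Of 11 such genes, 8 were higher and 1 lower in DM villi (all tested genes, 19.7% and 17.0%), with a median log2 fold change of 1.66. Leaving out each mouse in turn left 6 to 8 higher. The D-type cyclin gene *Ccnd2* rose from 5.29, 25.9 and 25.0 CPM in WT to 117, 109.7 and 106 CPM in DM mice (2.57 ± 0.59, adjusted p = 0.0220, edgeR), with WT mouse 1 the lowest. *Ccnd1* rose from 3.71 ± 1.39 to 20.3 ± 2.87 CPM (2.46, adjusted p = 0.000465, edgeR). Their partners *Cdk4* (18.3 ± 1.61 to 45.1 ± 8.52 CPM, 1.30, adjusted p = 0.000629) and *Cdk6* (1.03 ± 0.200 to 2.58 ± 1.26 CPM, 1.32, adjusted p = 0.0387) were both higher by edgeR. For the kinase inhibited by CIP/KIP proteins, *Cdk2*, the value was 0.48 ± 0.25 and did not pass (adjusted p = 0.172, edgeR). The genes of its cyclin E partners split, with *Ccne1* higher (1.08 ± 0.203 to 3.40 ± 0.403 CPM, 1.66, adjusted p = 0.00376) and *Ccne2* lower (6.77 ± 0.671 to 2.32 ± 0.298 CPM, -1.55, adjusted p = 0.00139, edgeR).

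Set against these partners mouse by mouse, the ratios of inhibitor and pocket protein transcripts to partner transcripts given here were lower in every DM mouse than in every WT mouse. Per kilobase, the ratio of *Cdkn1a* to *Cdk2* was 5.82 ± 0.55 log2 units in WT and 3.39 ± 0.31 in DM mice, or 56.4 and 10.5 on a linear scale. The ratio of *Cdkn2b* to *Cdk4* was 4.45 ± 0.21 and 2.51 ± 0.08 log2 units, or 21.8 and 5.69. The ratio of *Rb1* to *E2f1* was 6.12 ± 0.68 and 3.99 ± 0.77 log2 units, and that of *Rb1* to *E2f4* was 0.14 ± 0.13 and -0.70 ± 0.36. Each sets a gene called lower against a partner that was not called lower. A lower ratio therefore restates those changes and is no separate result. These are ratios of transcripts, and no protein was measured here.

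Of 10 E2F and DP genes, whose products the pocket proteins bind, 7 were higher and 0 lower, with a median of 0.86 (all tested genes, 19.7% and 17.0%). Leaving out each mouse in turn left 5 or 6 higher. *E2f7*, an atypical repressive member, rose from 0.359 ± 0.171 to 1.78 ± 0.349 CPM (2.30, adjusted p = 0.00522, edgeR), and *E2f1*, a main partner of RB, from 0.930 ± 0.309 to 2.33 ± 0.805 CPM (1.32, adjusted p = 0.0365, edgeR). *E2f4*, the main partner of p130, measured 35.8 ± 2.52 CPM in WT and 36.5 ± 3.53 CPM in DM mice (0.03 ± 0.12, 95% interval -0.25 to 0.30). Of 7 genes of the MuvB core with B-Myb and FoxM1, 2 were higher and 0 lower (all tested genes, 19.7% and 17.0%). The 2 were *Foxm1* (1.72, adjusted p = 0.00826) and *Lin9* (1.13, adjusted p = 0.00947, both edgeR). Of 9 pocket protein corepressors 4 were higher and 0 lower, led by the deacetylase gene *Hdac2* (1.18, adjusted p = 0.000379) and the methyltransferase gene *Suv39h1* (1.06, adjusted p = 0.00436, both edgeR).

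Of 20 E2F target genes 14 were higher (all tested genes, 19.7%), with a median of 1.33. *Mcm3*, a subunit of the replicative helicase, rose from 0.333, 2.39 and 2.33 CPM in WT to 10.00, 12.5 and 14.1 CPM in DM mice (2.88, adjusted p = 0.00833, edgeR), and *Rrm2*, a subunit of ribonucleotide reductase, rose from 1.39 ± 0.775 to 8.86 ± 1.18 CPM (2.69, adjusted p = 0.00220, edgeR). WT mouse 1 was the lowest for both *Mcm3* and *Rrm2*, as it was for *Mki67* and *Top2a*; without it the list again held 14 higher, and leaving out each of the other mice left between 10 (without DM mouse 1 or DM mouse 2) and 13.

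**Figure D4:**
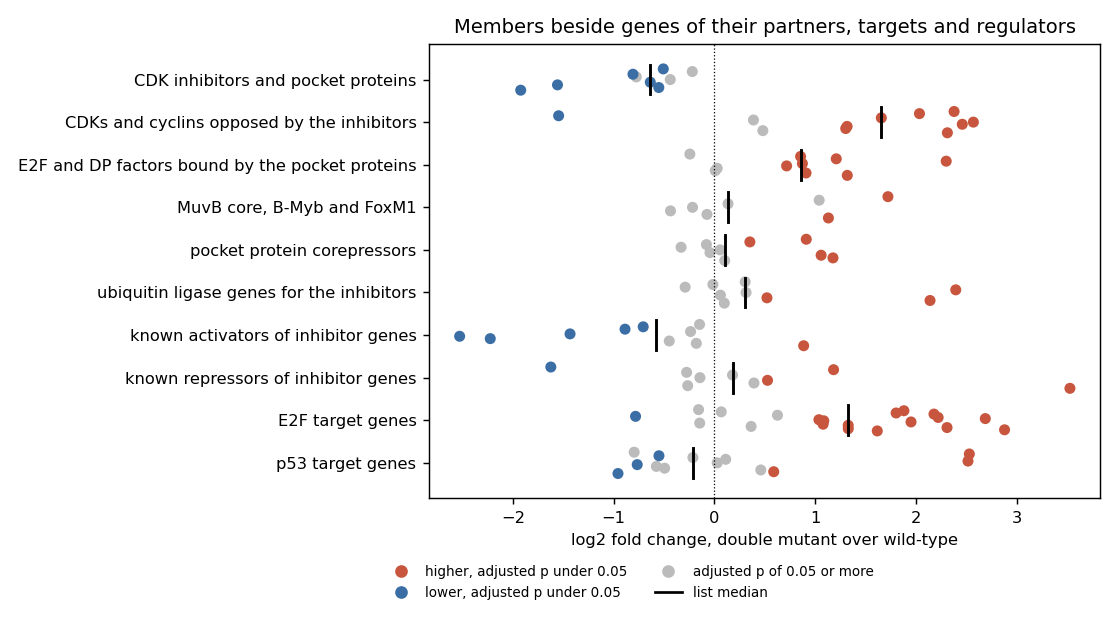
Log2 fold change, DM over WT (x axis), of the 9 tested CDK inhibitor and pocket protein genes (top row) and of tested genes in 9 lists of their partners, targets and regulators, with 1 point per gene coloured by direction where the adjusted p was under 0.05 (edgeR) and a bar at each list median. The top row lies wholly below 0 with a median of -0.64, and the kinases and cyclins (1.66) and E2F targets (1.33) have the highest medians.

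The genes known to control the inhibitors moved in both directions. Over all tested genes, 19.7% were higher and 17.0% lower. Of 10 known activators of inhibitor genes, 1 was higher and 5 lower, with a median of -0.58. *Trp53*, the p53 gene, was the 1 that rose, from 16.7, 17.0 and 20.0 CPM in WT to 36.0, 33.9 and 29.4 CPM in DM mice (0.89 ± 0.14, adjusted p = 0.00175, edgeR), opposite in direction to *Cdkn1a*. *Klf4*, a zinc-finger factor known to activate *Cdkn1a*, fell from 593, 582 and 616 CPM to 90.2, 103 and 117 CPM (-2.53 ± 0.13, adjusted p = 1.56e-05, edgeR), and *Smad4*, which belongs to the same list, is the gene that was deleted. Of 10 known repressors 9 were tested, with 3 higher, 1 lower and a median of 0.18. *Myc* rose from 0.417, 1.90 and 2.53 CPM to 18.6, 15.5 and 21.0 CPM (3.53 ± 0.52, adjusted p = 0.00234, edgeR) and the Polycomb gene *Cbx7* by 1.18 (adjusted p = 0.0285, edgeR), whereas *Tbx3*, a T-box repressor, fell from 442 ± 49.4 to 143 ± 19.1 CPM (-1.62, adjusted p = 0.000147, edgeR).

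Of 15 other p53 target genes 13 were tested, with 3 higher, 3 lower (all tested genes, 19.7% and 17.0%) and a median of -0.21. *Aen*, a nuclease gene, rose from 1.46 ± 0.441 to 8.38 ± 0.937 CPM (2.53, adjusted p = 0.000439) and *Gdf15*, which encodes a secreted stress cytokine, from 0.450 ± 0.323 to 2.57 ± 0.109 CPM (2.52, adjusted p = 0.00499, both edgeR). *Mdm2*, which encodes the ubiquitin ligase of p53, fell from 84.5 ± 6.07 to 43.5 ± 3.05 CPM (-0.96, adjusted p = 0.000530, edgeR) and *Sesn1*, a sestrin gene, from 122 ± 14.5 to 71.5 ± 14.6 CPM (-0.77, adjusted p = 0.00754, edgeR). The 13 tested genes thus had no common direction, and without WT mouse 1 the list held 6 higher and 4 lower. The 2 that were not tested, *Phlda3* and *Eda2r*, had low levels. They measured 0 to 0.0505 CPM in WT and 0.380 to 1.25 CPM in DM mice, and for both every DM mouse lay above every WT mouse.

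Of 9 genes of the ubiquitin ligases that degrade CIP/KIP proteins, 3 were higher and 0 lower (all tested genes, 19.7% and 17.0%). Their median was 0.31. *Dtl*, the substrate receptor of the ligase for p21 during DNA synthesis, rose from 0.759 ± 0.411 to 3.96 ± 0.533 CPM (2.40, adjusted p = 0.00417, edgeR), and *Cks1b*, the cofactor for p27, from 0.815 ± 0.398 to 3.58 ± 0.914 CPM (2.14, adjusted p = 0.00560, edgeR). *Skp2*, the receptor for p27, measured 0.10 ± 0.26 (95% interval -0.50 to 0.70; adjusted p = 0.798, edgeR).

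In the 8 genes with a RefSeq promoter, 11 start windows were searched. Besides the matches already given, GC boxes stood before 1 start each of *Cdkn2a* (2), *Cdkn2c* (3), *Cdkn2d* (3) and *Rbl1* (1), and a p53 half-site before *Cdkn2d*. The TCF motifs CTTTGAT and CTTTGAA (7.48% of all windows), the E-box CACGTG (6.02%) and the SMAD palindrome GTCTAGAC (0.167%) did not occur in the windows of these genes. *Cdkn1c* and *Rb1* were not among the promoters used. A match is a description of the letters in these windows only.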

How the data were processed

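Villus epithelium was released from duodenum by EDTA chelation and retained on a filter, and RNA-seq libraries were made by poly(A) enrichment from 3 DM and 3 WT mice. The authors aligned the reads to mm9 with HISAT2, used featureCounts to assign them to genes, and deposited the raw counts of each mouse without normalization; the strand setting of the counting is not given in the sources used here. Of 20073 Ensembl identifiers, 20032 were found in GENCODE vM1, which gave symbols, mm9 positions and exon lengths, and 336 numbered transcripts had no gene identifier.

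The counts were filtered by filterByExpr, scaled by TMM (factors 0.912 to 1.08), fitted by glmQLFit (robust) and tested by glmQLFTest in edgeR 4.0.16 (R 4.3.3), with Benjamini-Hochberg adjustment over all 13346 genes and a threshold of 0.05. SEs were obtained from each log2 fold change and its F statistic. P-values measure the spread between 3 mice per group, and intervals from them do not cover systematic error. With 3 mice against 3 an exact permutation test cannot go below p = 0.1, so none was used. Alternatives were DESeq2 1.42.0, limma-voom (limma 3.58.1), RLE factors, library size alone, no count filter, at least 1 CPM in 3 libraries, sex as a covariate, the replicate number as a block and leaving out each mouse, which make the 14 refits per gene. A fold threshold was tried for the counts of calls and the longest transcript for levels per kilobase. The fit was tested on simulated data first.

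The named genes include the 10 genes, *Smad4*, *Cdk2*, *Cdk4*, *Cdk6*, *Ccnd1*, *Ccne1*, *E2f1*, *E2f4*, *Skp2* and *Trp53*. Marker genes, genes overlapping a named gene and the 2 untested p53 targets are given besides. From each list, up to 2 called genes per direction with the largest change and a mean of at least 1 CPM were also named. A gene that this rule would name among the E2F targets is not reported here. The 10 genes were taken by symbol and not by a measured value, but these 10 genes and the lists were chosen with earlier results of these data known. Levels between genes are per kilobase of the exon union. Promoters are RefSeq windows in GRCm38.p6, searched on both strands.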

Additional observations from a re-analysis of the deposited data

How the results depend on the processing

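Each tested gene was recomputed under 14 alternatives, and 0 values reversed. *Cdkn1a*, *Cdkn1c*, *Cdkn2b* and *Rb1* stayed past the threshold and *Cdkn2c*, *Cdkn2d* and *Rbl1* stayed short of it in all 14; *Cdkn1b* kept its call in 13 and *Rbl2* in 7. Scaled by library size alone, *Cdkn1b* was -0.36 (adjusted p = 0.0613, edgeR), *Rbl2* -0.31 (adjusted p = 0.170, edgeR) and 5 ubiquitin ligase genes were higher. With the replicate block *Rbl2* was -0.53 (adjusted p = 0.0549, edgeR), so 5 of the genes were lower, and 3834 genes in the whole table were called against 4905. The replicate numbers carry sex, since replicate 1 was the male in each group, and the paper describes its replicates as matched by age and sex. Whether same-numbered mice were matched pairs is not given in the sources used here. Deviations of same-numbered mice correlated by 0.0224, -0.109 and 0.0123, and not every mouse correlated best with its own number. Leaving out 1 mouse at a time, 5 to 6 of the genes were lower, *Rbl2* ran from -0.63 to -0.35 (adjusted p 0.0244 to 0.0897, edgeR), and the higher p53 targets reached 6 without WT mouse 1 and 5 without WT mouse 2 or DM mouse 3. With a log2 fold change of at least 2 also required, 0 of the genes were lower. DESeq2 and RLE factors each put 1 ubiquitin ligase gene lower, and DESeq2 and the unfiltered fit each put 5 p53 targets higher. The cause of these changes was not tested. Depth limits *Cdkn2a*, with at most 5 counts per library, and *Cdkn2d*, with 15 to 38.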
